A study of Mus musculus with 18 samples.

Results

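The genes described here encode the translation initiation factors of the mouse, the proteins that bring a ribosome, the initiator tRNA and an mRNA together at a start codon. Members were all probe sets with a symbol that begins with Eif and a digit from 1 to 6. That gave 45 genes on the array, of which Eif1ax and Eif2s3y, the X and Y copies, were set aside. The remaining 43 genes are among 15780 probe sets with a gene symbol. They comprise 5 start codon and scanning factors, 3 genes for eIF2 and the delivery of initiator tRNA, 4 eIF2 kinases, 5 subunits of eIF2B and 10 of eIF3. The others are 4 genes for eIF4A and its helicase partners, 4 for the cap-binding eIF4E family with its partner Eif4enif1, and 2 eIF4G scaffolds. There are also 3 eIF4E-binding proteins of the Eif4ebp group, and 3 genes for eIF5A and eIF6.

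The 18 arrays measured RNA of male mice by hybridisation. Adult males, 2 months of age, gave spermatocytes purified by a flow cytometer, from the strain C57BL/10J-Ttf+/+T43H at the pre-mid-pachytene stage (n = 3), from C57BL/10J-t12+/+T43 at that stage (n = 3), and from C57BL/10J at the pre-mid-pachytene (n = 2) and mid-late pachytene (n = 2) stages. Whole testes without the tunica came from males aged 15 days of C57BL/10J-Ttf+/+T43H (n = 3), C57BL/10J-t12+/+T43 (n = 3) and C57BL/6J (n = 2). Both carrier strains, called Ttf/T43H and t12/T43 below, carry the T43 translocation between chromosomes 16 and 17 together with the Ttf or the t12 chromosome, and neither control strain carries any of these. The controls of the sorted cells and of the testes are thus different strains, and a whole testis is a mixture in which fewer cells of a type and less RNA per cell cannot be told apart. The study's title concerns autosomal chromatin that stays unsynapsed in meiosis, and its design compares each carrier with the fertile control of the same kind of sample.

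Initiation runs through a few connected complexes. eIF2 carries the initiator tRNA to the small ribosomal subunit, and eIF2B recharges eIF2 with GTP. The eIF2 kinases stop that recharging by phosphorylating eIF2, which is the centre of the integrated stress response. eIF4E binds the cap of the mRNA, eIF4G links it to the helicase eIF4A, and eIF3 joins the mRNA complex to the small subunit. In male germ cells many mRNAs made in meiosis are stored and translated only later, in spermatids, so control of initiation is a known feature of this lineage.

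Values are the authors' log2 expression values. Changes are differences of group means on that scale, with limma's moderated standard error (SE), and a gene is called where its Benjamini-Hochberg adjusted p over all tested genes is under 0.05. Levels of different genes are not set against each other, since each has its own probes. The array medians lay between 4.52 and 5.30 in the sorted cells and between 5.59 and 5.67 in the testes. Replicate arrays correlated at 0.991 to 0.997 in the testes, and at 0.912 to 0.992 in the sorted cells. Among the carrier spermatocytes, replicate 2 of Ttf/T43H and replicate 2 of t12/T43 were each the array farthest from the others of its group, with median absolute differences of 0.59 and 0.47 over all tested genes. Results are also given without both of these arrays, a choice made after seeing the data that narrows the estimate of the spread by its construction. The difference between 3′ and 5′ probe sets of Gapdh, a measure of how much of the labelled RNA is full length, was 3.26 to 3.98 on carrier pre-mid-pachytene arrays, 2.86 to 2.93 on C57BL/10J pre-mid-pachytene arrays, 2.51 to 3.39 on mid-late pachytene arrays and -0.12 to 0.14 on testis arrays. For actin the ranges were 3.06 to 4.41, 2.49 to 2.51, 3.38 to 3.51 and 1.11 to 1.37 in the same order, so the stages of C57BL/10J did not overlap, nor did carriers and C57BL/10J at the pre-mid-pachytene stage. Markers of other cells were also compared among the sorted fractions. At the pre-mid-pachytene stage, 8 peritubular and endothelial markers averaged 4.75 to 4.83 in Ttf/T43H and 4.23 to 4.53 in t12/T43. They averaged 4.61 to 5.28 in C57BL/10J at that stage. The 5 macrophage and blood markers averaged 2.52 to 2.91, 2.61 to 3.36 and 2.46 to 2.58 in that order. The mean of 5 Leydig cell markers was 8.03 to 10.61 in t12/T43, 6.93 to 8.31 in Ttf/T43H and 4.0 to 5.80 in C57BL/10J at the pre-mid-pachytene stage, against 3.20 to 3.75 at the mid-late stage. The mean of 16 spermatid markers was 5.42 to 7.62 in t12/T43, 9.34 to 9.80 in Ttf/T43H and 10.97 to 11.55 in C57BL/10J at the pre-mid-pachytene stage. The part of these RNA and marker differences in the results below was not tested.

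The first comparison sets the stages of C57BL/10J spermatocytes side by side. From pre-mid to mid-late pachytene 4 initiation factor genes rose and 11 fell among 42 tested, and 27 were not called. The share called was 35.7%, and over all 9666 genes tested it was 56.5% (26.2% higher and 30.3% lower). Their median change was -0.30, and that of all genes -0.11. The genes that fell belonged to different steps of the pathway, namely Eif2a, Eif2b3, Eif3a, Eif4a1, Eif4a3, Eif4b, Eif4e, Eif4enif1, Eif5a2, Eif5b and Eif6. Those that rose were Eif2b4, Eif4e2, Eif4g3 and, through the filter as set out below, Eif2ak2.

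**Figure D1:**
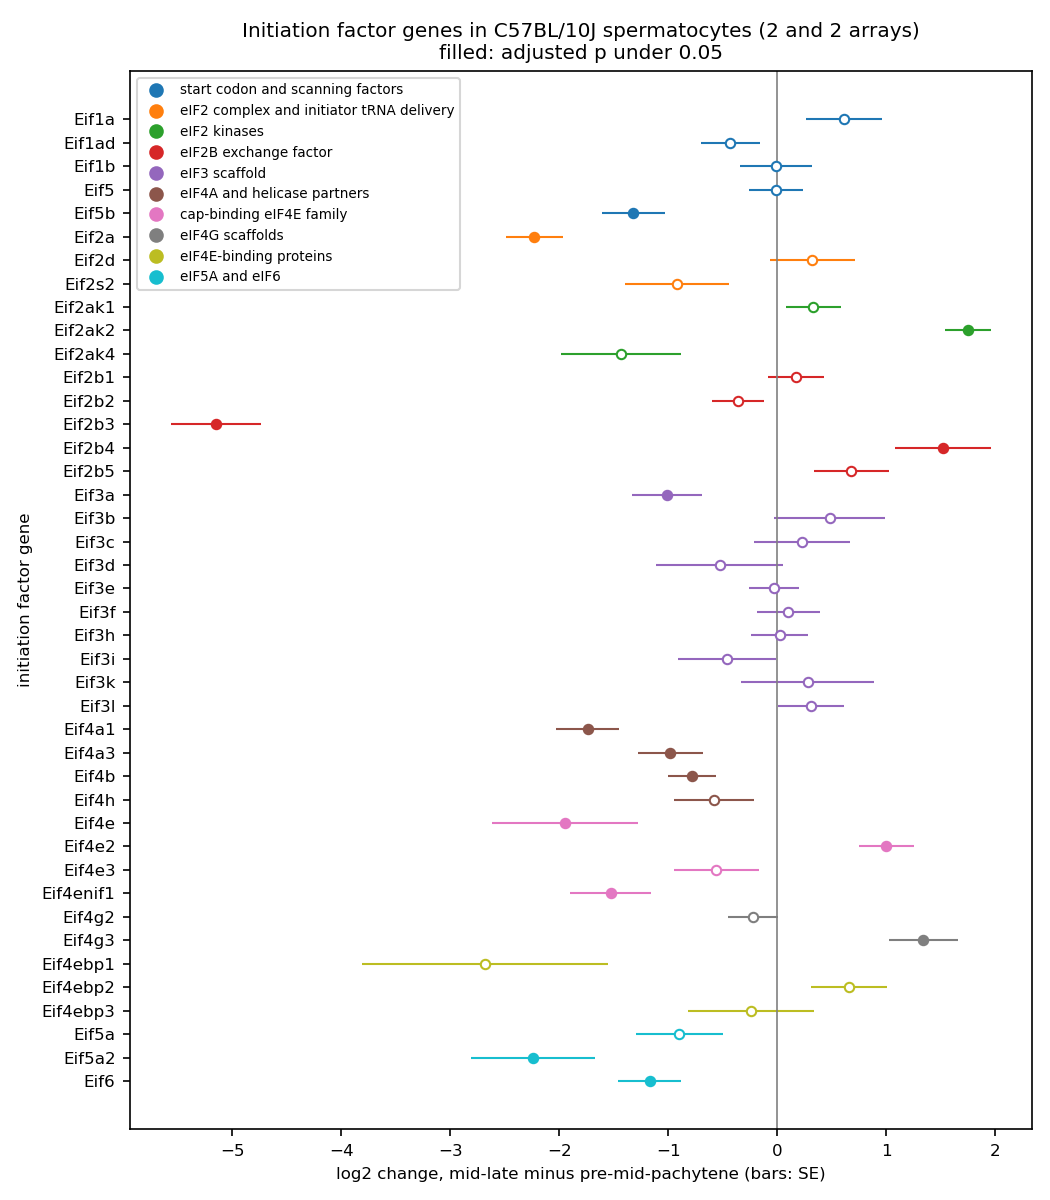
Log2 change of each of the 42 tested initiation factor genes from pre-mid to mid-late pachytene in C57BL/10J (2 arrays a stage), with the SE as a bar, coloured by role and filled where called. Eif2b3 lies alone at the far left, at -5.15, and the eIF3 subunits lie close to 0 apart from Eif3a.

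The largest change was in Eif2b3, which encodes the gamma subunit of eIF2B, part of its catalytic core. Its log2 values were 10.63 and 11.02 on the pre-mid-pachytene arrays, and 4.97 and 6.37 on the mid-late arrays. The change was -5.15 ± 0.41 (SE), a 35.6-fold fall (limma, adjusted p = 1.2e-05). Both mid-late values lay below every other array of the series, where the carrier spermatocytes had 9.75 to 10.12 and the testes 10.19 to 10.41. The other subunits of the complex did not follow. Eif2b4, the delta subunit, had 11.04 and 10.99 before and 12.60 and 12.48 after, a rise of 1.52 ± 0.44 (adjusted p = 0.017). Eif2b5, the catalytic epsilon subunit, had a change of 0.68 ± 0.34, Eif2b1 of 0.17 ± 0.26 and Eif2b2 of -0.36 ± 0.24, none of them called. The call of Eif2b3 held in all 4 fits that left out 1 array, while that of Eif2b4 held in 0 of 4, with adjusted p up to 0.081.

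**Figure D2:**
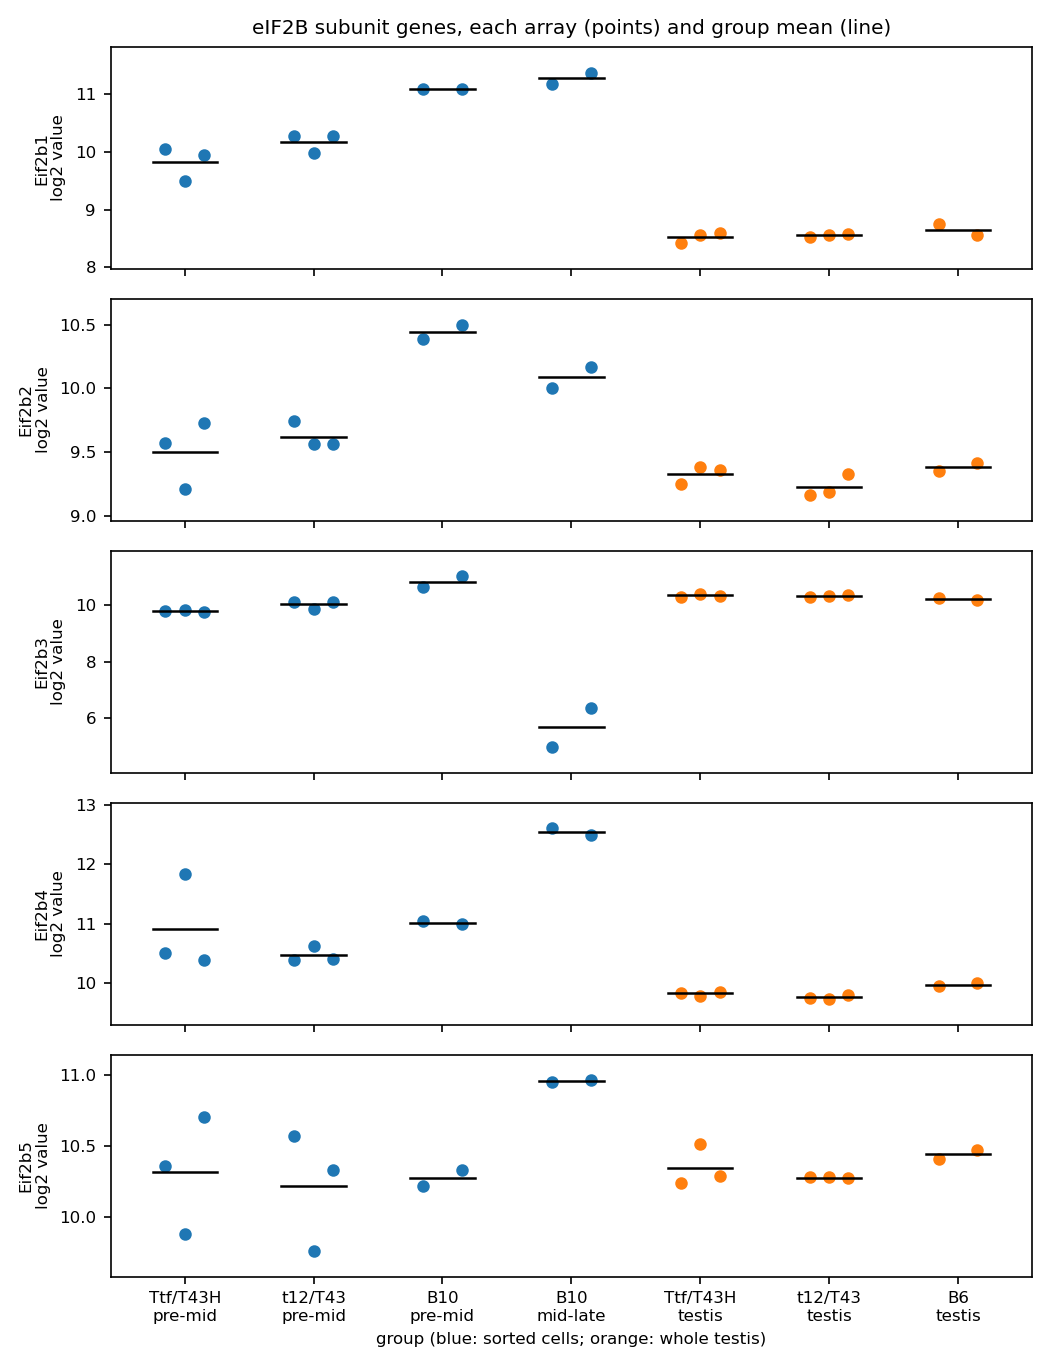
Log2 values of the 5 eIF2B subunit genes on every array (points; 3, 3, 2, 2, 3, 3 and 2 arrays from left to right) with group means (lines), each panel on its own scale. Eif2b3 drops to 4.97 and 6.37 in the mid-late pachytene cells, where Eif2b4 is highest, and Eif2b1 lies lower in both carriers than in C57BL/10J.

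Eif2a, a factor able to deliver initiator tRNA apart from eIF2, also fell. It measured 9.69 and 9.63 at the pre-mid stage and 7.51 and 7.36 at the mid-late stage, against 9.37 to 10.03 in carrier spermatocytes. The change was -2.23 ± 0.26 (adjusted p = 0.0001), and the mid-late values lay below all other arrays. Eif2s2, the beta subunit of eIF2, had a change of -0.92 ± 0.48 and was not called. It was called only without both replicates 2, a choice that narrows the spread by its construction. Among the kinases, Eif2ak2, the kinase activated by double-stranded RNA, had 2.69 and 2.76 before and 4.30 and 4.64 after. All 8 pre-mid-pachytene arrays had 2.66 to 2.76, and the gene passed the filter at a log2 value of 4 only through the mid-late arrays where it was high. Its call was therefore fixed by the filter, and no fold or test is given. Eif2ak4, the kinase that senses uncharged tRNA, had 7.71 and 7.31 before and 5.60 and 6.55 after (-1.43 ± 0.55, not called). Eif2ak3, the kinase of the endoplasmic reticulum, stayed between 2.57 and 3.65 on all 18 arrays and was not tested.

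Genes of the cap-binding complex, and relatives and partners of its members, changed in both directions. Eif4e, which binds the cap, measured 11.43 and 11.60 before and 9.66 and 9.47 after, a fall of 1.95 ± 0.67 (adjusted p = 0.035). Eif4e2, a cap-binding homologue that represses translation, had 9.06 and 9.26 before and 10.14 and 10.17 after, a rise of 1.0 ± 0.25 (adjusted p = 0.0081). Eif4enif1, which carries eIF4E into the nucleus and binds it in mRNA granules, fell from 10.62 and 10.81 to 9.16 and 9.22 (-1.53 ± 0.37, adjusted p = 0.0068). The stages did not overlap for any of these genes. The call of Eif4e was lost in all 4 fits that left out 1 array, with adjusted p up to 0.13. Of the scaffolds, Eif4g3 rose from 11.16 and 11.25 to 12.48 and 12.62 (1.34 ± 0.32, adjusted p = 0.0069), and Eif4g2, a scaffold without the eIF4E-binding site, changed by -0.22 ± 0.23 and was not called. The helicase eIF4A fell in its main gene, Eif4a1, from 11.47 and 12.20 to 10.09 and 10.09 (-1.74 ± 0.29, adjusted p = 0.00086). Eif4a3, a core protein of the exon junction complex, changed by -0.98 ± 0.30 (adjusted p = 0.022) and Eif4b, a helper of eIF4A, by -0.78 ± 0.22 (adjusted p = 0.014). Both of these calls were lost in all 4 fits that left out 1 array, with adjusted p up to 0.13 and 0.094. None of the 3 Eif4ebp genes was called. Eif4ebp1, the repressor released by mTOR signalling, had 7.59 and 8.45 before and 5.75 and 4.94 after, a change of -2.68 ± 1.13 with a large error.

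Subunit joining and late steps showed falls. Eif5b, which brings the ribosomal subunits together, had 8.98 and 9.30 before and 7.58 and 8.05 after (-1.32 ± 0.29, adjusted p = 0.0039). Eif6, which keeps free large subunits apart from small ones, fell by 1.17 ± 0.29 (adjusted p = 0.008). Eif5a2, the tissue-restricted isoform of eIF5A, fell from 8.04 and 8.21 to 5.88 and 5.89 (-2.24 ± 0.57, adjusted p = 0.0085). Its paralogue Eif5a had a change of -0.90 ± 0.40 and was not called. Eif5 and Eif1b, which act in start codon recognition, both had changes of -0.01. Of the 10 eIF3 subunits, 9 were not called, with changes from -0.52 to 0.48. Eif3a, the largest subunit, was the exception, with 9.99 and 9.90 before and 8.67 and 9.21 after (-1.01 ± 0.32, adjusted p = 0.023). Its call held in only 1 of 4 fits that left out 1 array, with adjusted p up to 0.17. It was also lost with the array medians aligned (limma, adjusted p = 0.052).

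Eif2ak2 set aside, the calls that held in all 4 fits that left out 1 array were those of Eif2a, Eif2b3, Eif4a1, Eif4enif1, Eif4g3, Eif5a2 and Eif5b. Without both replicates 2, which enter here only through the estimate of the spread, 25 of 42 were called, and 6952 of all 9666 genes. The balance of rises and falls depends on scaling: with the array medians aligned, the median change of all genes moved from -0.11 to 0.18, that of the initiation factor genes from -0.30 to -0.02, and 6 of 14 called genes were higher. Markers of other cells moved with the stage as well. The mean of 9 spermatogonia and preleptotene markers was 6.68 and 7.07 on the pre-mid arrays and 3.67 and 3.70 on the mid-late arrays, that of 9 leptotene and zygotene markers 11.49 and 11.58 against 8.28 and 8.45, and that of 12 Sertoli cell markers 5.83 and 5.93 against 3.77 and 3.90. The 16 spermatid markers averaged 10.97 and 11.55 against 9.35 and 9.73, and the 10 mid-late pachytene markers 10.27 and 10.36 against 12.50 and 12.59. The part of these marker differences in the changes was not tested.

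The promoters of 3 genes with changes in the results are shown, Eif2a, Eif2b1 and Eif2b4, taken from RefSeq on GRCm38.p6 as 250 bases before and 30 after the start. Their windows are chr3:58525571-58525850 on the plus strand, chr5:124579102-124579381 on the minus strand and chr5:31193110-31193389 on the minus strand. Capitals mark a match to the ETS core CCGGAAG, which occurs in Eif2b4 alone of these.
Eif2a: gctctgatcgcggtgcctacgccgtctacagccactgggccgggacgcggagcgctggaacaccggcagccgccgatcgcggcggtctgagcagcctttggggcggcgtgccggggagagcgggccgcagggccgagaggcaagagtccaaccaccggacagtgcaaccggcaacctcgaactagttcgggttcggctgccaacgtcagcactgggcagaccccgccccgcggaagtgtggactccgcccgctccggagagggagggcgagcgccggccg
Eif2b1: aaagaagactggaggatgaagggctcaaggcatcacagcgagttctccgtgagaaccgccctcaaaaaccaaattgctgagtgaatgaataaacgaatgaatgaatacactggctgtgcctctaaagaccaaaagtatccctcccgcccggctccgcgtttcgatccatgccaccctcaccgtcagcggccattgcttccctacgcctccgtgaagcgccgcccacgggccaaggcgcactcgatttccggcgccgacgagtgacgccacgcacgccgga
Eif2b4: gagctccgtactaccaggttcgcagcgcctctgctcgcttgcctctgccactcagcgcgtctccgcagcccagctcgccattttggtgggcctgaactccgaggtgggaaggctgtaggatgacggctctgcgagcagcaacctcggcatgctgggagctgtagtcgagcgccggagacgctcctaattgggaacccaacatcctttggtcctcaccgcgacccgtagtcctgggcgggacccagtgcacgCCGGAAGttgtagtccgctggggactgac
For 33 of the 43 genes RefSeq gave 46 such windows, and 32851 windows stand for all genes. The ETS core, searched on both strands and chosen after the letters were seen, was in 34.8% of the members' windows and in 8.45% of all windows. The median GC content was 61.8% in the members' windows and 52.5% in all windows. Motifs of factors known in male meiosis were rare in both sets of windows. Some members gave several overlapping windows, so the windows are not independent. The MYB core AACNGTT was in 0 of 46 windows (all windows 4.2%), the cyclic AMP response element TGACGTCA in 0 (1.74%) and the RFX half-site GTTGCCA in 1 (2.17% against 4.18%). A match describes the letters only.

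The second comparison concerns the carriers at the pre-mid-pachytene stage. Against C57BL/10J pre-mid-pachytene cells, 1 of 42 initiation factor genes was called in Ttf/T43H (all genes 2.06%) and 1 of 42 in t12/T43 (all genes 9.07%). In both it was Eif2b1, the alpha subunit of eIF2B, through which the complex senses phosphorylated eIF2. Eif2b1 measured 10.06, 9.49 and 9.94 in Ttf/T43H, 10.27, 9.98 and 10.28 in t12/T43, and 11.10 and 11.10 in C57BL/10J. Every carrier array lay below both controls. The change was -1.27 ± 0.24 in Ttf/T43H (adjusted p = 0.037) and -0.93 ± 0.24 in t12/T43 (adjusted p = 0.045). Both comparisons use the same 2 control arrays. In a limma fit with a block for the replicate number the call was lost in both carriers (adjusted p = 0.13 and 0.1). It was also lost in 4 of 5 fits that left out 1 array for Ttf/T43H and in 5 of 5 for t12/T43. There the adjusted p was up to 0.32 and 0.27. Without both replicates 2 the gene was called (0.0078 and 0.009), but that choice narrows the spread by its construction. The Leydig cell and spermatid markers given above also differed between these groups. The mean of 12 Sertoli cell markers was 6.38 to 6.79 in Ttf/T43H, 6.73 to 7.60 in t12/T43 and 5.83 to 5.93 in C57BL/10J. That of 10 mid-late pachytene markers was 9.73 to 10.69, 9.38 to 9.90 and 10.27 to 10.36 in the same order. The part of these marker differences in this result was not tested. In the testes, Eif2b1 had changes of -0.13 ± 0.08 and -0.10 ± 0.08 against C57BL/6J, neither called.

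Eif2b2, the beta subunit of eIF2B, had values of the same pattern without passing the test. It measured 9.57, 9.21 and 9.73 in Ttf/T43H, 9.74, 9.56 and 9.56 in t12/T43, and 10.39 and 10.50 in C57BL/10J, with changes of -0.94 ± 0.22 (adjusted p = 0.068) and -0.82 ± 0.22 (adjusted p = 0.053). Eif2b3 had changes of -1.03 ± 0.37 and -0.80 ± 0.37, again with no overlap and no call. Eif2b5, which lies on chromosome 16, one of the translocated chromosomes, ranged from 9.76 to 10.70 in the carriers and had 10.22 and 10.33 in C57BL/10J, so the groups overlapped. Outside eIF2B no gene was called. Eif4e changed by -1.08 ± 0.61 in Ttf/T43H, where replicate 2 had 8.99 and the others 11.06 and 11.26. Eif4ebp2, an eIF4E-binding repressor, changed by 0.97 ± 0.32 and 0.73 ± 0.32, Eif4g3 by 0.71 ± 0.30 and 0.69 ± 0.30, and Eif2ak4 by 0.79 ± 0.50 and 0.94 ± 0.50. These counts rest on the arrays used. Without both replicates 2, 10 of 42 were called in each carrier, while the calls over all 9666 genes rose to 1764 and 2744. Called in both carriers were then Eif2ak4, Eif2b1, Eif2b2, Eif2b4, Eif3b, Eif4e2, Eif4ebp2 and Eif4g3. Both carriers share the 2 control arrays, and the share of all genes called in both was not computed. Leaving out these arrays was chosen after seeing the data and narrows the spread by its construction, so nothing is concluded from these calls. Eif2b2 then had changes of -0.79 in both carriers, and Eif4g3 of 1.01 in Ttf/T43H and 0.72 in t12/T43.

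Between the carriers, no initiation factor gene was called at the pre-mid-pachytene stage by limma, and 0 of 42 had an unadjusted p under 0.05, against 10.2% of all genes. Over all genes 0.755% were called. Without both replicates 2, 0 of the members were called, and 519 of all genes. Changes of t12/T43 minus Ttf/T43H ran from -0.78 to 1.01. The largest was in Eif4e, which measured 11.06, 8.99 and 11.26 in Ttf/T43H and 11.22, 11.94 and 11.17 in t12/T43, a change of 1.01 ± 0.55. Replicate 2 of Ttf/T43H was low alone, and the other arrays overlapped. That array was also the highest of its group for Eif4ebp1 (11.03 against 8.05 and 7.22), where the change was -0.78 ± 0.92, and for Eif2b4 (11.84 against 10.51 and 10.38). These genes thus had a wide spread among the Ttf/T43H arrays.

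The eIF3 subunits differed together on 1 array. On replicate 2 of t12/T43 all 10 were the lowest of the 3 arrays, and their median difference from the other t12/T43 arrays was -0.83. Eif3k measured 8.89 there against 10.77 and 11.05, Eif3d 11.28 against 13.11 and 13.28, and Eif3c 12.05 against 13.27 and 13.52. Over all initiation factor genes that array was lowest for 31 of 42 (73.8%), and over all genes tested for 48.4%. The 3 Eif4ebp genes and the 3 genes of eIF2 and initiator tRNA delivery were all lowest there, with median differences of -0.64 and -0.37. So were the 3 genes for eIF5A and eIF6, at -0.93. Other roles went the other way or split. Of the cap-binding eIF4E family and its partner Eif4enif1, 3 of 4 were highest there, with a median difference of 0.46. Of the eIF4A genes and partners 2 were lowest and 2 highest, and 0 of 2 eIF4G scaffolds were lowest. On Ttf/T43H replicate 2 the Eif4ebp genes were all highest, at 1.65. The eIF3 subunits encode a single large complex, and this was a difference of 1 array. The 3′ minus 5′ difference of Gapdh was 3.98 on that array, and that of actin 3.99. Ttf/T43H replicate 2 had 3.91 and 4.41, and its eIF3 subunits had a median difference of 0.13 from the other Ttf/T43H arrays. The part of these 3′ minus 5′ differences in the eIF3 values was not tested. No eIF3 subunit was called in either carrier at this stage with all arrays. Eif3b was called in both, at 0.68, only without both replicates 2, the choice made after seeing the data.

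**Figure D3:**
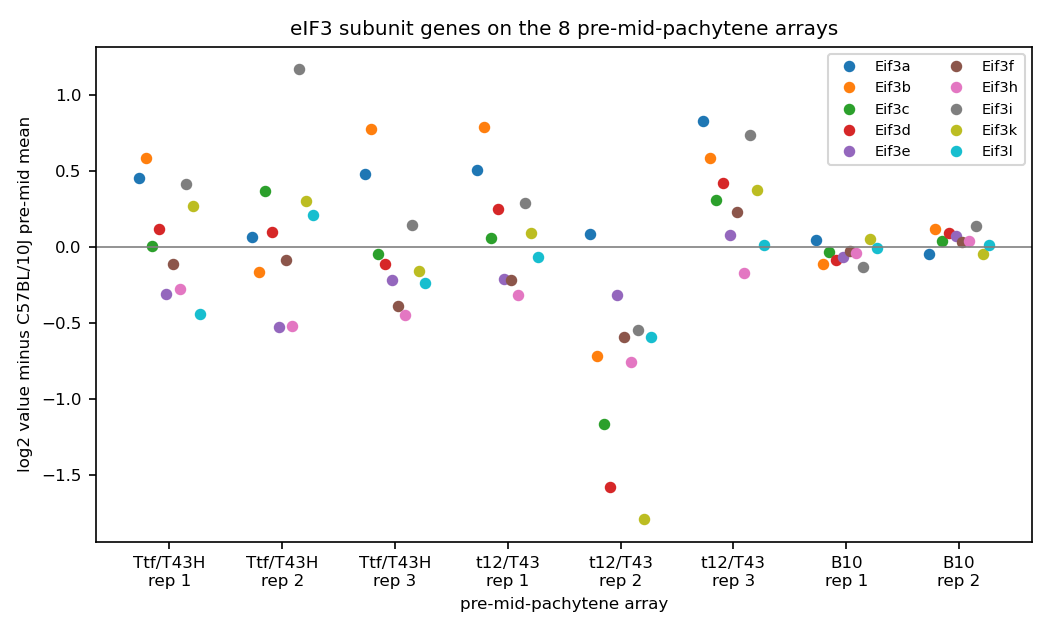
Log2 values of the 10 eIF3 subunit genes on the 8 pre-mid-pachytene arrays, each as its difference from the mean of the 2 C57BL/10J arrays. On t12/T43 replicate 2 all subunits except Eif3a lie below 0.

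The carriers were also compared with C57BL/10J mid-late pachytene cells. In Ttf/T43H 11 genes were higher and 5 lower of 42 (38.1%, all genes 60.3%, with 31.7% higher and 28.6% lower), and in t12/T43 14 were higher and 4 lower (42.9%, all genes 64.4%, with 34.2% higher and 30.2% lower). The lower genes include Eif2ak2 in both, again through the filter. These comparisons share the mid-late arrays with each other and with the stage comparison. Eif2b3 was higher by 4.12 ± 0.37 in Ttf/T43H (adjusted p = 2.1e-05) and by 4.36 ± 0.37 in t12/T43 (adjusted p = 1.3e-05), with carrier values of 9.75 to 10.12. Eif2a was higher by 2.02 ± 0.23 and 2.22 ± 0.23. Eif4a1 was higher by 1.48 ± 0.26 and 1.52 ± 0.26, and Eif4enif1 by 1.80 ± 0.34 and 1.90 ± 0.34. Of the genes on the lower side, Eif2b4 differed by -1.63 ± 0.40 and -2.07 ± 0.40, Eif4e2 by -1.40 ± 0.23 and -1.48 ± 0.23, and Eif2b1 by -1.44 ± 0.24 and -1.10 ± 0.24. Eif2ak4 was called here in both carriers, at 2.23 ± 0.50 and 2.37 ± 0.50, with carrier values from 7.54 to 8.84 against 5.60 and 6.55. Eif4ebp1 differed by 3.42 ± 1.03 (adjusted p = 0.018) and 2.65 ± 1.03 (adjusted p = 0.049). The call in t12/T43 held in 2 of 6 other settings and in 1 of 5 fits that left out 1 array, with adjusted p up to 0.21. All 3 genes for eIF5A and eIF6 were called higher in both carriers. In t12/T43 the calls of Eif5a and Eif6 each held in only 1 of 5 fits that left out 1 array, with adjusted p up to 0.21 and 0.17. Without both replicates 2, 24 of 42 genes were called in Ttf/T43H and 26 of 42 in t12/T43. Over all genes the calls rose as well, to 6798 and 7418, from 5825 and 6224. The split of directions depended on scaling: with array medians aligned, 11 of 24 called genes were higher in Ttf/T43H and 8 of 19 in t12/T43.

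In the 15-day testis the differences were small and the replicates close. Against C57BL/6J, 4 initiation factor genes were higher and 2 lower of 41 tested in Ttf/T43H (14.6%, all genes 8.56%, with 3.86% higher and 4.7% lower), and 4 were higher and 4 lower in t12/T43 (19.5%, all genes 21.8%, with 10.5% higher and 11.3% lower). Called changes had sizes of 0.19 to 0.41 in Ttf/T43H and 0.21 to 0.46 in t12/T43. The genes Eif5b, Eif2s2 and Eif4enif1 were higher, and Eif2ak1 and Eif3k lower, in both carriers, which share the 2 control arrays. Cell markers moved too: the mean of 5 Leydig cell markers was 4.41 to 7.56 on Ttf/T43H arrays, 4.99 to 7.60 on t12/T43 arrays and 7.43 to 8.21 on C57BL/6J arrays, and that of 10 mid-late pachytene markers was 8.50 to 9.05, 7.81 to 8.29 and 8.82 to 8.98 in the same order. Their part in these small changes was not tested.

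**Figure D4:**
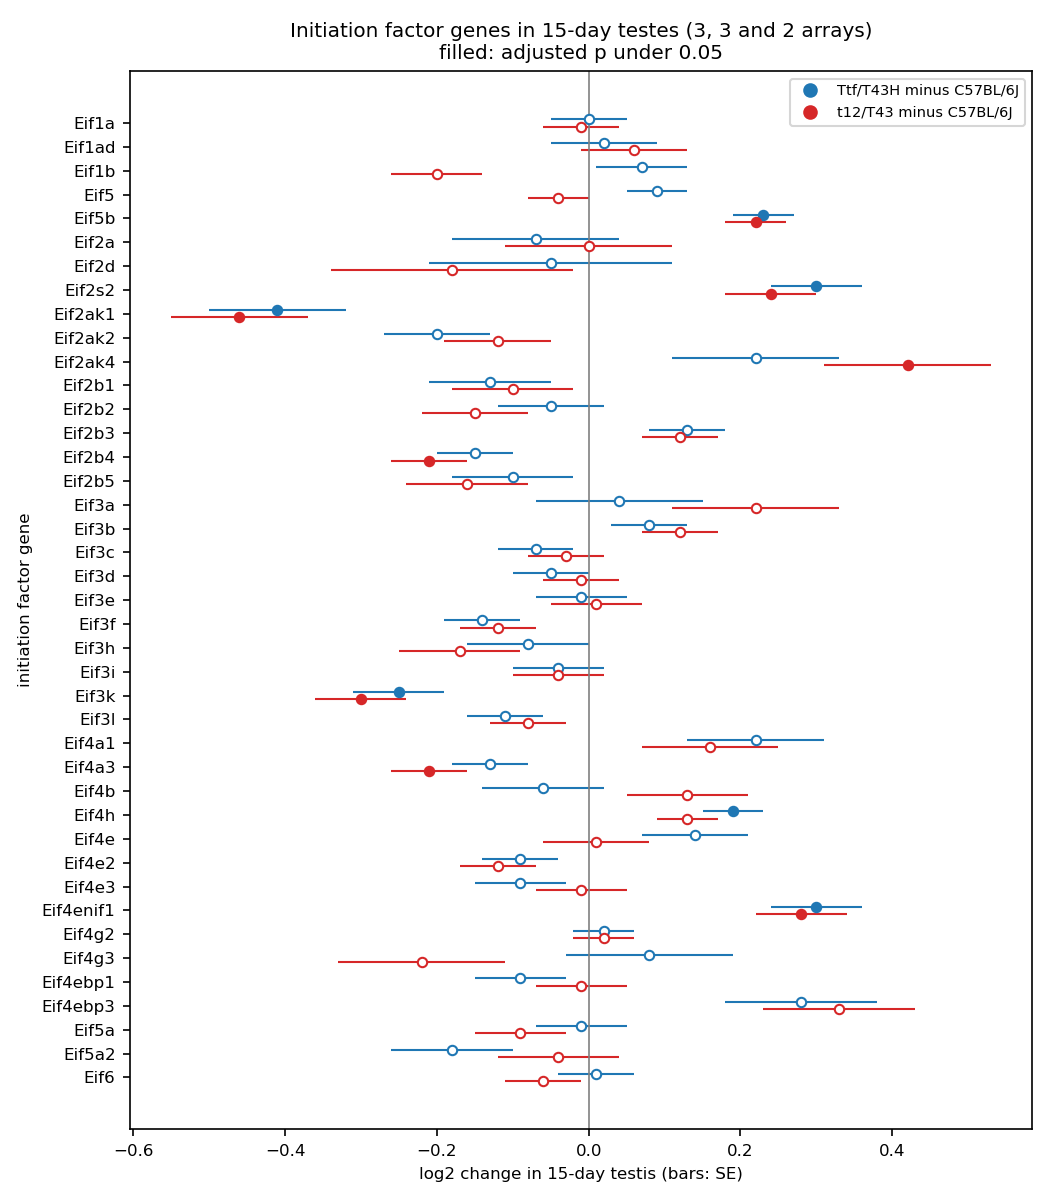
Log2 change of each tested initiation factor gene in 15-day testes of Ttf/T43H (blue) and t12/T43 (red) against C57BL/6J, with the SE as a bar, filled where called. All changes lie between -0.46 and 0.42, far narrower than in the sorted cells.

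Eif2ak1, the heme-regulated eIF2 kinase, measured 6.08, 6.08 and 6.00 in Ttf/T43H, 6.12, 6.07 and 5.83 in t12/T43, and 6.53 and 6.41 in C57BL/6J. All carrier arrays lay below both controls, with changes of -0.41 ± 0.09 (adjusted p = 0.038) and -0.46 ± 0.09 (adjusted p = 0.014). Eif5b had 8.82 to 8.88 in the carriers and 8.62 and 8.64 in C57BL/6J, with changes of 0.23 ± 0.04 (adjusted p = 0.022) and 0.22 ± 0.04 (adjusted p = 0.013). Eif2s2 changed by 0.30 ± 0.06 and 0.24 ± 0.06, Eif4enif1 by 0.30 ± 0.06 and 0.28 ± 0.06, and Eif3k by -0.25 ± 0.06 and -0.30 ± 0.06. These are the genes called in both carriers. Called in one carrier were Eif4h (0.19 ± 0.04) in Ttf/T43H, and Eif2ak4 (0.42 ± 0.11), Eif2b4 (-0.21 ± 0.05) and Eif4a3 (-0.21 ± 0.05) in t12/T43, and no test of a difference between the carriers called any of these. None of the testis calls held in every fit that left out 1 array, and none held in the fit of all 18 arrays.

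Between the carriers in the testis, 1 of 41 genes was called (all genes 4.99%), Eif1b, a close relative of the start codon factor eIF1. It measured 13.12, 13.07 and 13.01 in Ttf/T43H and 12.86, 12.81 and 12.71 in t12/T43 (-0.27 ± 0.06, adjusted p = 0.047), with 13.04 and 12.96 in C57BL/6J. The t12/T43 arrays lay below all others. In a fit of all 18 arrays, the difference between the carriers did not differ between sorted cells and testis at the threshold for any initiation factor gene (0 of 42, all genes 0.734%), with 1 gene at an unadjusted p under 0.05 (all genes 7.64%). Eif2ak2, on chromosome 17, measured 5.73 to 5.90 in Ttf/T43H, 5.83 to 5.97 in t12/T43 and 5.97 to 6.07 in C57BL/6J, and was not called.

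Levels in pre-mid-pachytene cells and whole testes were set side by side without a test, since age and extraction kit differ as well, and which arrays were normalized together is not given. Over 8 arrays of each kind, 15 genes were higher on every pre-mid-pachytene array than on any testis array and 4 were lower. That was 44.2% of all 43 members without a filter, and 58.3% of the 10623 genes that passed it. The higher genes include Eif2ak3, which did not pass the filter, with medians of 3.17 and 2.58. Eif4e had a median of 11.24 in the spermatocytes and 7.97 in the testes. Eif4ebp2 had 6.08 and 2.49, and Eif4g2 11.96 and 9.96. Eif4a1 was lower in spermatocytes, with 11.58 against 13.14, as was Eif2ak2, with 2.71 against 5.90. All testis values of Eif4ebp2 and all pre-mid-pachytene values of Eif2ak2 lay below the filter at a log2 value of 4. The cap-binding factor Eif4e and the repressor Eif4ebp2 had higher values in these sorted cells, and the helicase Eif4a1 lower. The array medians and the 3′ minus 5′ differences of Gapdh, given above, did not overlap between these kinds of array either. Their part in the levels was not tested.

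Over the 10 comparisons, 25 of the 42 tested genes were called at least once, and over all genes tested 72.2% were. The 17 called in none had changes from -0.73 to 1.04, and 8 of the 10 eIF3 subunits are among them.

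The X and Y copies were lower at the mid-late stage of C57BL/10J. Eif1ax measured 7.80 and 7.52 at the pre-mid stage and 3.84 and 3.68 at the mid-late stage. It passed the filter at a log2 value of 4 only through pre-mid-pachytene arrays, where it was high, and no fold or test is given. Eif2s3y, the Y copy of the eIF2 gamma subunit, fell by 4.69 ± 0.45 from pre-mid to mid-late pachytene (limma, adjusted p = 3.4e-05), more than every member except Eif2b3. Of the related lists at that stage, where 56.5% of all genes were called (26.2% higher and 30.3% lower), 4 of 8 tested genes of elongation and termination fell and none was called higher, among them Eef1e1 (-3.72 ± 0.34) and the ribosome recycling factor Abce1 (-2.32 ± 0.40). Poly(A)-binding proteins and partners split, with 2 of 5 higher and 2 lower. The germ cell poly(A)-binding genes Pabpc2 (4.60 ± 0.51) and Pabpc6 (5.31 ± 0.64) rose, and Paip2 (-4.19 ± 0.37) and Paip2b (-5.88 ± 0.25), which inhibit poly(A)-binding protein, fell. In the integrated stress response 1 of 9 rose, Ddit3 (2.10 ± 0.38), and 4 fell, a share near that of all genes, including Atf4 (-2.10 ± 0.36), the transcription factor translated when eIF2 is phosphorylated, and Asns (-2.73 ± 0.48), one of its targets. Of 11 mTOR and eIF4E kinase genes, 1 rose, the eIF4E kinase Mknk1 (1.87 ± 0.35), and 3 fell, with Rheb, the activator of mTOR, at -2.40 ± 0.26. Of 10 other helpers, 1 rose and 5 fell, with the X-linked helicase Ddx3x at -5.39 ± 0.58 and Dhps, which modifies eIF5A, at -2.40 ± 0.69.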

How the data were processed

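Per the submitters' processing notes the deposited table holds log2 values from GCRMA, with 1 probe set per gene. Its version, and which arrays were normalized together, are not given in the sources used here. Per the labels' protocols, 20 to 30 ng of RNA went through 2-cycle biotin labelling. The deposited values were fitted without further normalization, for genes with a log2 value of 4 or more on 2 or more arrays. limma 3.58.1 (R 4.3.3), with 1 mean per group, gave 1 fit of the 10 sorted arrays (9666 genes), 1 of the 8 testis arrays (9134 genes) and 1 of all 18 (10623 genes), which served the difference between kinds of sample. Tests were two-sided, and the code was tested on simulated data. The design text calls replicates biological. The number of arrays limits the precision.

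Every member could be named. Up to 8 called members per comparison with the smallest p came in full, then the largest changes by role and up to 4 genes of each pathway list. Members and lists were chosen with earlier results of these data known. Replicate numbers were not taken to pair samples. Alternatives left out the filter, raised it to 6, used quantile normalization, aligned medians, a replicate block or 1 fit of all arrays, dropped each array in turn or, chosen after seeing the data, dropped Ttf/T43H replicate 2 with t12/T43 replicate 2 or with t12/T43 replicate 3.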

Additional observations from a re-analysis of the deposited data

How the results depend on the processing

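No called change of an initiation factor gene reversed under the alternatives tried. Against C57BL/10J pre-mid-pachytene cells, where 1 gene was called in each carrier, the number of called genes in Ttf/T43H was 2 without a filter, 0 with the replicate block, 6 in the fit of all 18 arrays, 10 without both replicates 2, 2 without Ttf/T43H replicate 2 and t12/T43 replicate 3, and 0 to 2 with 1 array left out. In t12/T43 it was 2 without a filter, 2 with quantile normalization, 0 with the replicate block, 6 in the fit of all 18 arrays, 10 without both replicates 2, 4 without the latter pair, and 0 to 0 with 1 array left out. The stage comparison called 25 without both replicates 2 and 8 to 10 with 1 array left out, against 15. The comparisons with mid-late cells called 26 and 28 in the fit of all 18 arrays and 7 to 19 and 9 to 21 with 1 array left out. Between the carriers in the testis, the count was 0 without a filter, 0 with quantile normalization, 0 with aligned medians, 3 with the replicate block, 0 in the fit of all 18 arrays and 0 to 2 with 1 array left out. Against C57BL/6J the fit of all 18 arrays called 0 in both carriers, and leaving out 1 array gave 0 to 3 in Ttf/T43H and 1 to 6 in t12/T43. The fit of all 18 arrays gives sorted cells and testes 1 estimate of the spread. Calls over all genes moved with the settings too. In Ttf/T43H against C57BL/10J pre-mid-pachytene cells 199 genes were called in the main fit and 18 with the replicate block. There, 1560 were called in the fit of all 18 arrays and 1764 without both replicates 2. In t12/T43 these counts were 877, 400, 2213 and 2744. Against mid-late cells the fit of all 18 arrays called 6880 and 7312, against 5825 and 6224. The stage comparison called 6952 of all genes without both replicates 2, against 5464. In the testis, against C57BL/6J, the fit of all 18 arrays called 68 and 195 of all genes, and the main fit 782 and 1994. Between the carriers in the testis, 456 genes were called in the main fit, 1703 with the replicate block and 7 in the fit of all 18 arrays. Leaving out an array lowers the number of samples. Other causes were not tested. The replicate numbers share no source in the labels, and deviations of same-numbered arrays correlated between -0.35 and 0.25 over 13 pairs of sorted arrays and between -0.07 and 0.68 over 7 pairs of testis arrays. The replicate block left the other counts of called initiation factor genes within 1.5 times those of the main fit. With quantile normalization 15 of 20 called genes were higher in Ttf/T43H against mid-late cells. Groups of 2 and 3 arrays limit every comparison.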
